A study of Mus musculus with 8 samples.

Results

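The cytochrome P450 genes of families 1, 2 and 3 were examined in liver RNA-seq of fasted mice with and without hepatic pyruvate carboxylase. Members were the protein-coding genes of GENCODE M21 with a symbol of the form Cyp1, Cyp2 or Cyp3 followed by a subfamily letter and a number, which gave 60 genes in 16 subfamilies of the 35275 genes in the deposited count table. Liver was taken from C57BL/6 males at 9 weeks of age after a 24 h fast, from 4 control and 4 Pcx L-/- mice, 1 library per mouse. Control mice, labelled WT, were littermates homozygous for Pcx with a floxed exon 10 (Pcx f/f), and Pcx L-/- mice carried the same floxed alleles together with Albumin-Cre, which is driven in hepatocytes. All mice shared the fast, and no fed liver was analysed here. The other cells of the liver kept an intact Pcx in this design.

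P450 enzymes are heme proteins of the endoplasmic reticulum. They take electrons from NADPH through P450 oxidoreductase, with cytochrome b5 as an additional donor, and insert an oxygen atom into their substrates. Families 1, 2 and 3 clear drugs and other foreign compounds, and several members also act on steroids, bile acids and arachidonic acid. In liver most are made by hepatocytes, many of them in the cells around the central vein, and their genes are controlled by the nuclear receptors CAR (Nr1i3) and PXR (Nr1i2), by the aryl hydrocarbon receptor (Ahr), by Hnf4a and by sex-dependent growth hormone pulses.

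Libraries held 12016242 to 20023108 reads on genes. Whole-gene Pcx counts served as the check of the labels. The Pcx level was 204 to 313 in control and 7.89 to 10.8 in Pcx L-/- liver (log2 fold change -4.80 ± 0.19, edgeR adjusted p = 3.66e-07), where level is the normalised FPKM, that is FPKM after scaling by the trimmed mean of M-values (TMM). The hepatocyte markers were present in every library, with Alb and Apoa1 among them, at a summed level of 68050 to 79090 in control and 43590 to 63110 in Pcx L-/- liver, and 4 of 13 were lower in Pcx L-/- and 0 higher (unadjusted p under 0.05: 9 lower, 0 higher; DESeq2: 8 lower, 0 higher), where 13.5% of all genes tested were lower and 14.1% higher. The median log2 fold change of the 13 was -0.515, and 11 were negative. The 2 that were not negative, Ahsg and Hpx, did not pass. Ahsg was 4759 to 6512 in control and 6376 to 7673 in Pcx L-/- liver, and Hpx was 1706 to 2006 and 1725 to 2048. The share of hepatocytes, the RNA per hepatocyte and changes of single genes cannot be told apart in bulk tissue, and their part was not tested. Among markers of other cells, 1 of 11 macrophage genes was higher, 1 of 7 cholangiocyte genes was higher and 1 lower, and 0 of 10 endothelial, 0 of 10 stellate and 0 of 5 red blood cell genes passed the edgeR quasi-likelihood test (at an unadjusted p under 0.05, 2 endothelial genes were lower; DESeq2 called 0 in these 3 lists). Kidney markers were at or near no reads, with a summed level of 0 to 1.20. The single pancreas gene tested of 9, Cela1, was higher, at 3.54 to 6.76 in control and 8.06 to 9.22 in Pcx L-/- liver, and 1 of 2 intestine genes tested was lower.

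Pcx L-/- replicate 1 stood apart from the other Pcx L-/- libraries in the marker sums below and in many P450 levels. It did not stand apart in Pcx, at 10.8 against 7.89 to 10.4 in those libraries and 204 to 313 in control. Its summed level of red blood cell markers was 5510, against 484 to 1243 in the other Pcx L-/- libraries and 341 to 1307 in control. Its hepatocyte marker sum, 63110, lay between those of control and of the other Pcx L-/- libraries, 43590 to 49110. The mouse number in its label is close to those of control replicates 1 and 2, and the other 5 mice carry higher numbers. The labels do not say whether these numbers mark a batch. The part of these features in the results was not tested, and the main counts are given with and without this library.

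Most expressed P450 genes were lower in Pcx L-/- liver. Of the 60 members, 10 had no read in any library, and 39 passed the filter on low counts and were tested. In edgeR's quasi-likelihood test, with p-values adjusted after Benjamini and Hochberg over the 13168 genes tested, 21 members were lower, 3 were higher and 15 did not pass an adjusted p of 0.05. Over all genes tested, 27.6% passed, 13.5% lower and 14.1% higher. At least 2-fold lower were 14 members, against 3.58% of all genes tested, and at least 2-fold higher were 3, against 3.65%. The median log2 fold change of the tested members was -0.84, beside -0.01 for all genes tested, and 34 of the 39 were negative. Every Pcx L-/- library lay below every control library for 18 of the 39 (12.5% of all genes tested) and above every control library for 2 (15.1%). Scaling by library size alone moved the median of all genes to 0.28 and that of the members to -0.58, with 20 members lower and 4 higher, where 36.3% of all genes passed and 6.61% were lower. Without Pcx L-/- replicate 1, 25 members were lower and 2 higher of 40 tested, where 34.5% of all genes passed and 17.8% were lower.

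**Figure D1:**
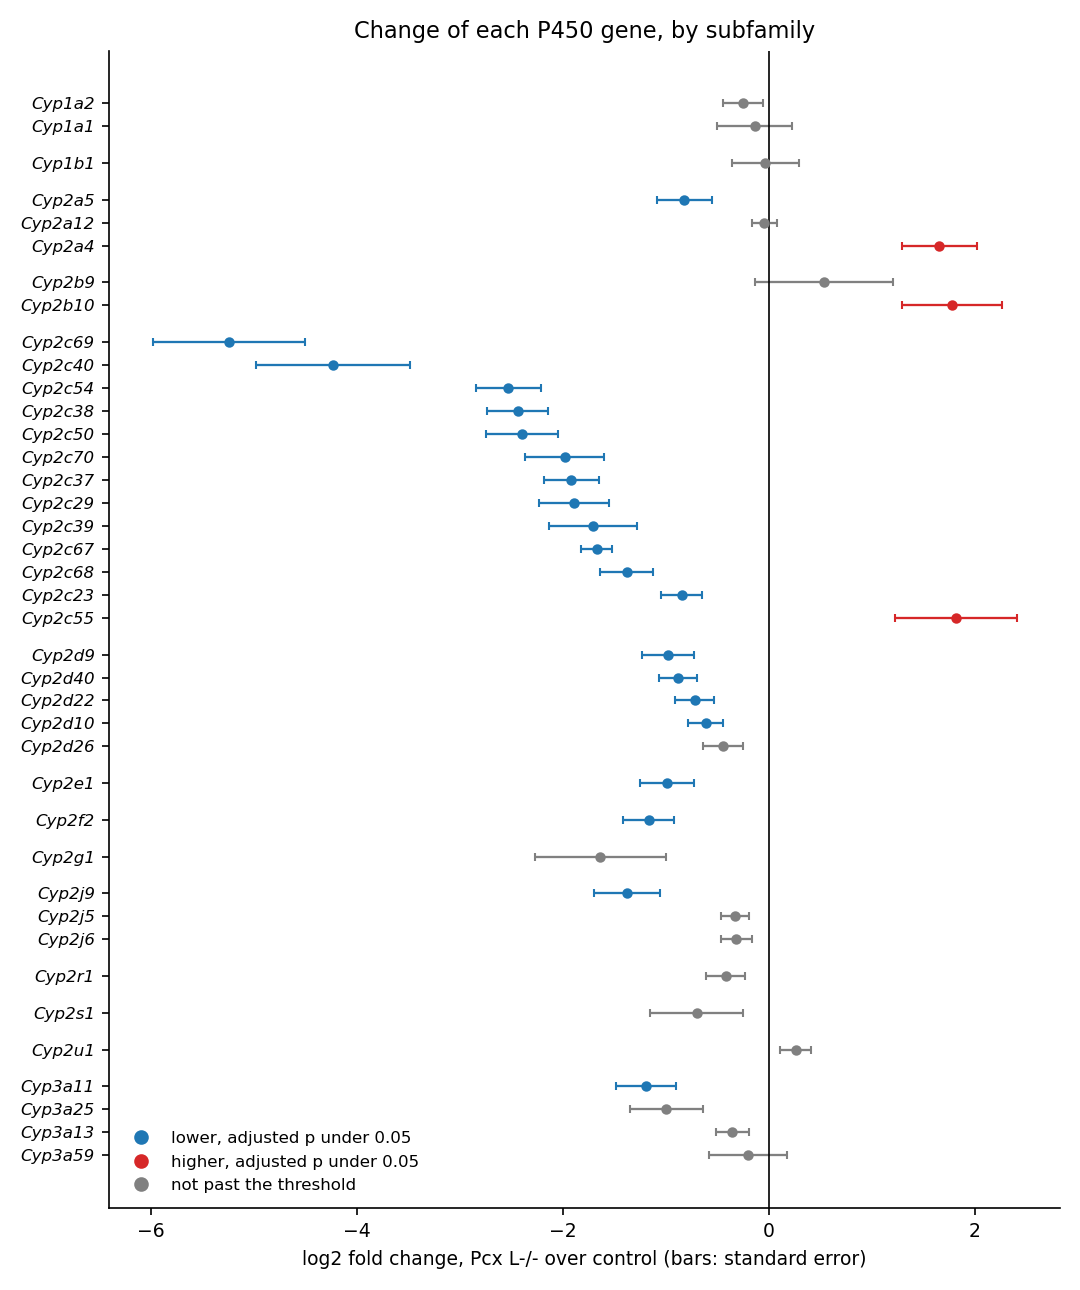
Log2 fold change of the 39 tested P450 genes in Pcx L-/- over control liver (x axis, 4 libraries each), grouped by subfamily on the y axis, with the standard error as bars. Blue points were lower and red points higher at an adjusted p under 0.05 by edgeR's quasi-likelihood test, and grey points did not pass; 12 of the 13 tested Cyp2c genes lie to the left of 0 and Cyp2c55 lies to the right.

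The summed level of all 60 members fell to 53.1% of control. The sums were 14440, 14210, 13060 and 12000 in control replicates 1 to 4 and 10850, 5868, 6012 and 5792 in Pcx L-/- replicates 1 to 4. The groups did not overlap, and Pcx L-/- replicate 1 lay nearer to control than to the other 3. Without it the sum was 43.9% of control. P450 genes made up 2.20 to 2.75% of all levels in control and 1.32 to 2.09% in Pcx L-/- liver, the upper end again in replicate 1. Among the 21 lower members, that library was the highest of the 4 Pcx L-/- libraries in 21, at a median of 1.99 times the mean of the other 3 (range 1.29 to 7.70).

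**Figure D2:**
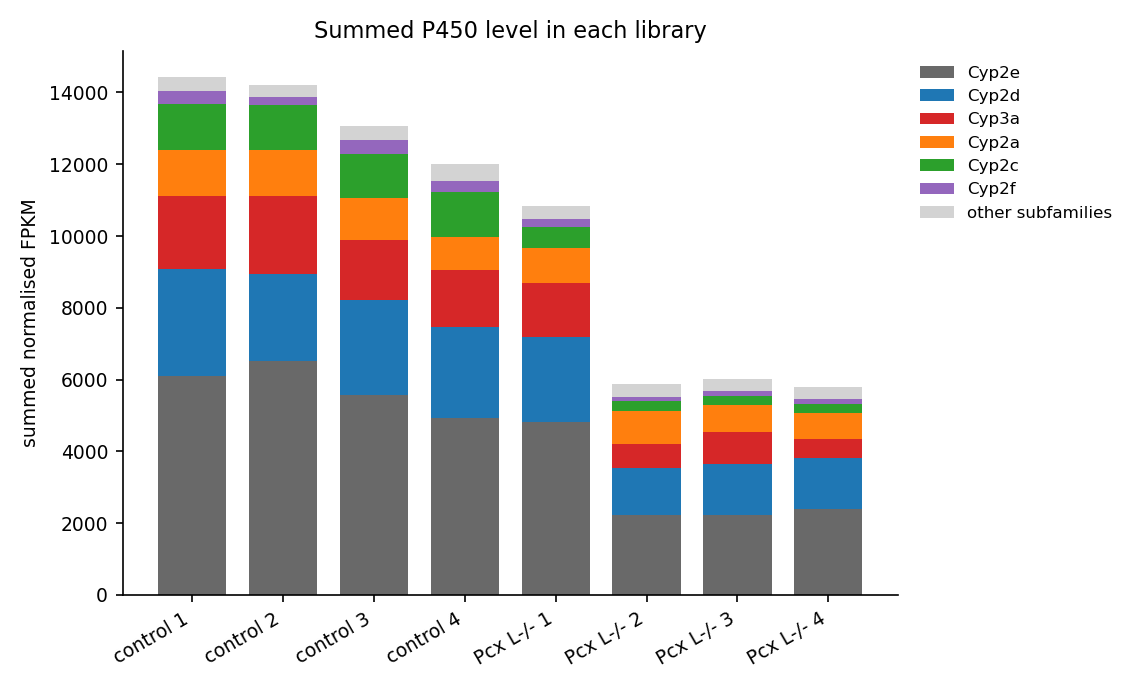
Summed normalised FPKM of the P450 genes (y axis) in each of the 8 libraries (x axis), with the bars split by subfamily. The 4 control libraries reach 12000 to 14440, Pcx L-/- replicate 1 reaches 10850, and the other 3 Pcx L-/- libraries reach 5792 to 6012.

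Cyp2e1, which oxidises ethanol, acetone and paracetamol, was by far the most abundant member. It lies on chromosome 7 (chr7:140763739-140774987, GRCm38) and took 41.0 to 45.9% of the P450 sum in control and 37.2 to 44.3% in Pcx L-/- liver. Its level was 6086, 6524, 5557 and 4922 in control and 4807, 2225, 2234 and 2406 in Pcx L-/- libraries. All Pcx L-/- values were below control, with replicate 1 close to the lowest control. The log2 fold change was -0.98 ± 0.27 (SE; edgeR adjusted p = 0.0188), and the call was lost when any of Pcx L-/- replicates 2, 3 or 4 was left out.

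The Cyp3a genes encode the main drug-oxidising P450 group of liver and lie on chromosome 5. Their sum was 48.6% of control, and 1 of the 4 tested of 9 members passed the test. Cyp3a11, a target of PXR, stood at 1214, 1277, 948 and 1064 in control and at 777, 383, 557 and 253 in Pcx L-/- liver, with no overlap (log2 fold change -1.19 ± 0.29, adjusted p = 0.0124). Cyp3a25 had a similar size of difference and overlapping groups, at 661, 750, 599 and 369 in control and 573, 205, 240 and 178 in Pcx L-/- liver (log2 fold change -0.99 ± 0.36, adjusted p = 0.0582). Without Pcx L-/- replicate 1, Cyp3a25 passed the threshold. Cyp3a13 and Cyp3a59 did not pass, at log2 fold changes of -0.35 ± 0.16 and -0.20 ± 0.38. Without Pcx L-/- replicate 1, Cyp3a13 passed as lower (-0.50, edgeR adjusted p = 0.0128) and Cyp3a59 did not (-0.68, edgeR adjusted p = 0.107).

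The Cyp2d genes of chromosome 15 were lower in 4 of 5 tested cases, and their sum was 61.1% of control. Cyp2d9, a male-biased steroid hydroxylase, had levels of 1446, 971, 1088 and 960 in control and 905, 435, 482 and 443 in Pcx L-/- liver. The groups did not overlap (log2 fold change -0.98 ± 0.25, adjusted p = 0.0152). Cyp2d10 (695 ± 90.0 against 456 ± 93.8, SD, n = 4 each), Cyp2d22 (123 ± 19 against 74.8 ± 21.3) and Cyp2d40 (27.6 ± 2.27 against 15.1 ± 4.37) were also lower, by log2 fold changes between -0.88 and -0.61. Cyp2d26 did not pass: its level in Pcx L-/- replicate 1, 741, was above every control value, and the other 3 were 386 to 465 (log2 fold change -0.44 ± 0.20, adjusted p = 0.12). Without that library, Cyp2d26 passed as lower (log2 fold change -0.68, edgeR adjusted p = 0.00111). The calls of Cyp2d9, Cyp2d10 and Cyp2d22 were lost without Pcx L-/- replicate 2, 3 or 4, and that of Cyp2d22 also without control replicate 1.

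**Figure D3:**
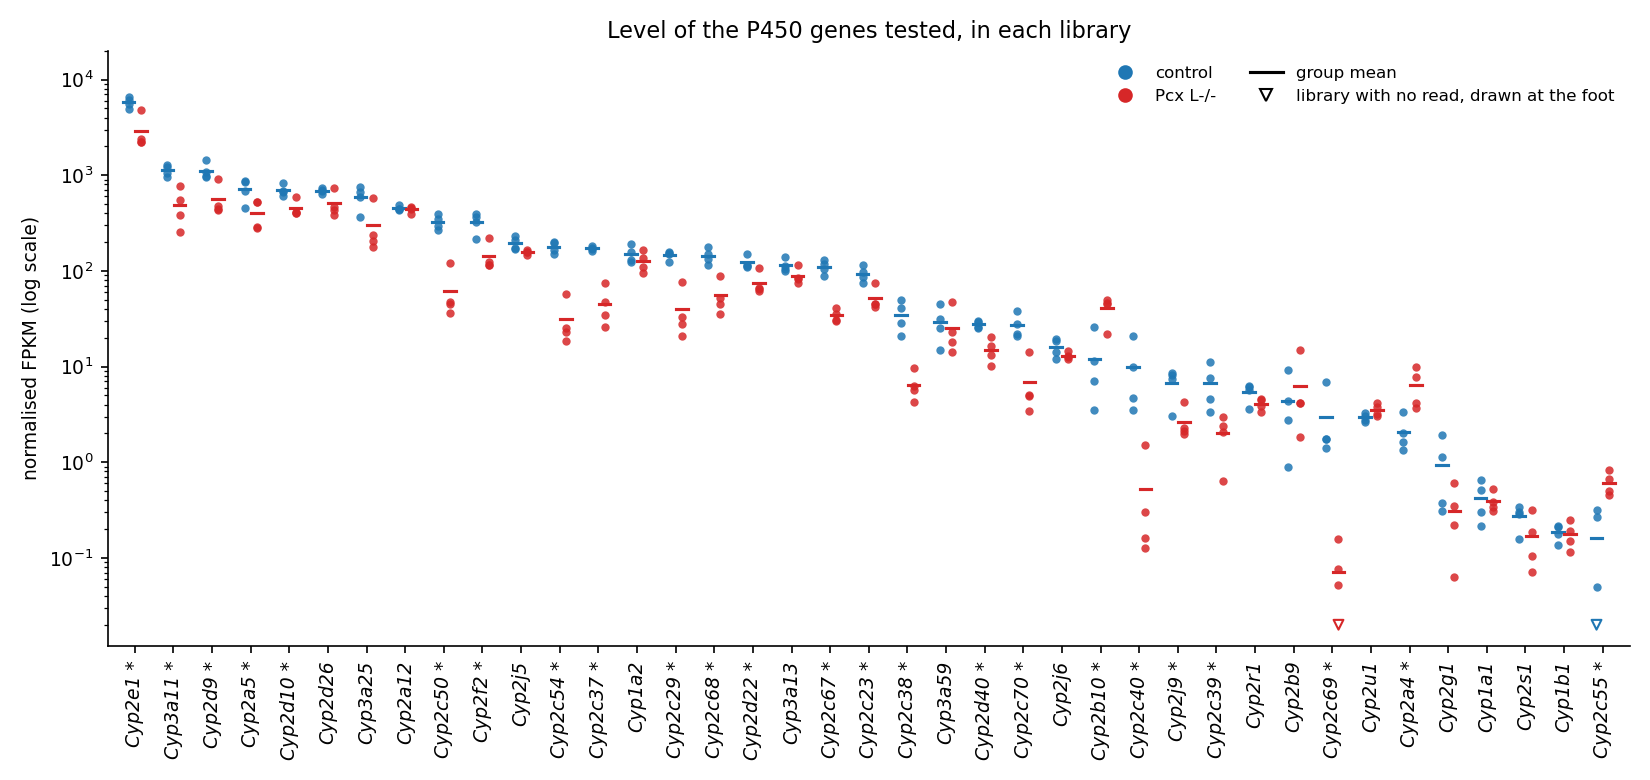
Normalised FPKM (y axis, log scale) of the 39 tested P450 genes in each library, ordered along the x axis by their control mean, with control in blue, Pcx L-/- in red, lines at the group means and an asterisk at each gene past the threshold. Cyp2e1 is at the left at 4922 to 6524 in control, and libraries with no read are open triangles drawn at the foot, which were 1 Pcx L-/- library for Cyp2c69 and 1 control library for Cyp2c55.

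The Cyp2c subfamily had the lowest sum relative to control. Its genes encode epoxygenases and hydroxylases of arachidonic acid, steroids and drugs. Of 15 members 13 were tested, 12 were lower and 1, Cyp2c55, was higher, with a median log2 fold change of -1.91. Their sum was level among controls, at 1264, 1259, 1225 and 1265, and was 566, 264, 264 and 253 in Pcx L-/- replicates 1 to 4. This was 26.9% of control, or 20.8% without replicate 1. Their share of the P450 sum was 8.75 to 10.6% in control and 4.37 to 5.21% in Pcx L-/- liver, so the share separated the groups with replicate 1 included.

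Of the 13 tested Cyp2c genes, 12 lie in a cluster of 1180 kb on chromosome 19 (chr19:39007019-40187333, GRCm38), where no gene of another family was tested; Cyp2c23 lies outside it at chr19:44005022-44029208. The coding sequences of the 13 were 64.8 to 98.1% identical over 78 pairs, with a median of 78.1%. Below are the 30 coding bases around the codon of the cysteine that holds the heme, from the GENCODE M21 transcripts, with that codon in capitals. They are shown because several members have the same stretch, which bears on how far reads can be told apart.
Cyp2c29: ttttcaacaggaaaacggattTGTgctgga
Cyp2c37 and Cyp2c54: ttctcaacagggaaacggataTGTgcagga
Cyp2c50: ttctcaacaggaaaacggataTGTgcagga
Cyp2c38: ttctcagcaggaaaacgggttTGTgctgga
Cyp2c39: ttctcagcaggaaaacgtgttTGTgctgga
Cyp2c40, Cyp2c67, Cyp2c68 and Cyp2c69: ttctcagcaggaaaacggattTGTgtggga
Cyp2c70: ttctcagcaggaagaagagctTGTattgga
Cyp2c55: ttctcaataggaaagcgaatgTGCgtggga
Cyp2c23: ttctccctcgggaagcgatccTGTgttggc

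Cyp2c40, Cyp2c67, Cyp2c68 and Cyp2c69 had 1 stretch in common and coding sequences 96.5 to 98.1% identical. Of their transcript 50-base words, 72.1, 52.8, 43.3 and 54.8% in that order occurred in another gene too, and for Cyp2c37, Cyp2c50 and Cyp2c54 this was 30.1, 30.7 and 25.7%. The share was 2.08% for Cyp2c29 and 0.514% for Cyp2c55, and no word of Cyp2c70 or Cyp2c23 was shared. The sources used here do not say whether reads that match several copies were divided among them or left out. The levels of the near copies, and the split among them, are therefore uncertain.

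Cyp2c50, Cyp2c54 and Cyp2c37 had the highest control means of the lower Cyp2c genes and are listed among the genes of the pericentral zone. Cyp2c50 had levels of 392, 351, 297 and 270 in control and 121, 47.4, 36.0 and 45.1 in Pcx L-/- liver. The highest Pcx L-/- value was under the lowest control (log2 fold change -2.39 ± 0.35, adjusted p = 0.00119). Cyp2c54 went from 200, 198, 167 and 151 to 57.6, 22.7, 18.7 and 25.3 (log2 fold change -2.53 ± 0.32, adjusted p = 0.000772). Cyp2c37 was 162 to 181 in control and 75.1, 46.9, 34.3 and 25.8 in Pcx L-/- liver (log2 fold change -1.91 ± 0.27, adjusted p = 0.0011). None of the 3 overlapped between groups. By control mean Cyp2c50 ranked 9 among the 60 members and in Pcx L-/- liver 14, and Cyp2c54 went from rank 12 to 21.

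Cyp2c29, an inducible target of CAR that shared few words with other genes, was 125, 158, 153 and 151 in control and 77.1, 27.6, 32.8 and 20.9 in Pcx L-/- liver (log2 fold change -1.89 ± 0.34, adjusted p = 0.00319). Cyp2c70, which makes the muricholic acids of rodent bile, was 22, 20.8, 28.1 and 38.0 in control and 14.2, 3.46, 5.07 and 4.94 in Pcx L-/- liver (log2 fold change -1.98 ± 0.38, adjusted p = 0.00445; -2.60 without replicate 1). The groups did not overlap for either gene, and neither rests on words shared with a near copy to more than 2.08%. Cyp2c38 (34.9 ± 12.9 against 6.44 ± 2.24, SD, n = 4 each) and Cyp2c39 (6.68 ± 3.49 against 2.01 ± 0.98) were lower by log2 fold changes of -2.44 ± 0.30 and -1.70 ± 0.43.

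In the group of Cyp2c40 the abundant and the scarce copies differed in size of change. Cyp2c67 was 87.9, 104, 117 and 130 in control and 41.4, 30.1, 30.9 and 35.6 in Pcx L-/- liver, and had the smallest adjusted p of all members (log2 fold change -1.67 ± 0.15, adjusted p = 0.000169). Cyp2c68 was 115 to 178 in control and 89.3, 35.4, 52.4 and 44.9 in Pcx L-/- liver (log2 fold change -1.38 ± 0.26). The female-biased Cyp2c40 and Cyp2c69 were scarce in these males. Cyp2c40 was 9.94, 4.64, 3.51 and 21 in control and 1.51, 0.30, 0.13 and 0.16 in Pcx L-/- liver, from 944 control and 71 Pcx L-/- reads (log2 fold change -4.23 ± 0.75, adjusted p = 0.00288; -5.56 without Pcx L-/- replicate 1 and -3.56 without control replicate 4). Cyp2c69 was 1.76, 1.73, 1.40 and 6.89 in control and 0.16, 0.08, 0.05 and 0 in Pcx L-/- liver, from 267 control and 10 Pcx L-/- reads (log2 fold change -5.24 ± 0.74, adjusted p = 0.00109; -4.44 without control replicate 4). Both had their highest value in control replicate 4, and their control CVs were 81.8 and 89.6%, beside a median of 20.6% over the tested members. Control replicate 4 was the highest control for 7 of the 13 tested Cyp2c genes and for 15 of the 39 tested members, and it was the lowest control for 11 of the 39.

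Cyp2c55 ran the other way and was near the limit of detection. Its level was 0.27, 0.32, 0 and 0.05 in control and 0.67, 0.45, 0.83 and 0.50 in Pcx L-/- liver, from 21 control and 97 Pcx L-/- reads. The groups did not overlap (log2 fold change 1.82 ± 0.59, adjusted p = 0.0402), but the call was lost in 8 of 17 alternative analyses, among them each fit without 1 Pcx L-/- library. Cyp2c23, outside the cluster, had the smallest change among the lower Cyp2c genes. It was 74.4 to 115 in control and 75.0, 42.2, 44.6 and 45.3 in Pcx L-/- liver, so replicate 1 lay within the control range (log2 fold change -0.84 ± 0.20, adjusted p = 0.0109).

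**Figure D4:**
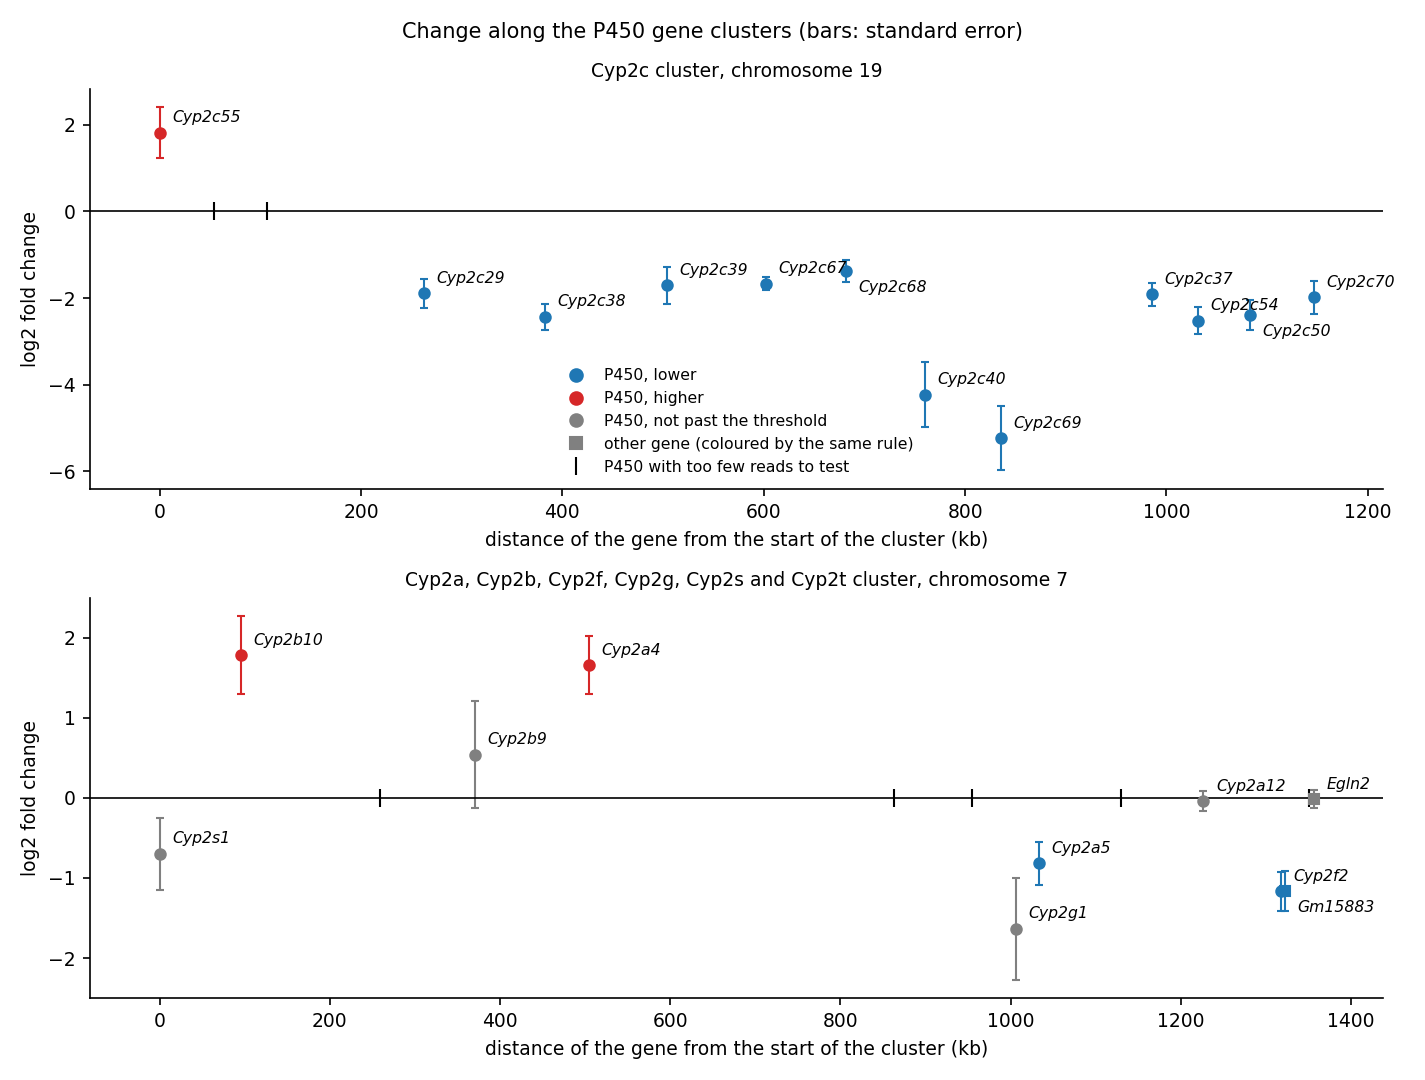
Log2 fold change (y axis, bars for the standard error) of each tested gene against its distance in kb from the start of its gene cluster (x axis), for the Cyp2c cluster of chromosome 19 (upper) and the Cyp2 cluster of chromosome 7 (lower). In the upper panel Cyp2c55 at the start of the cluster is above 0 and the other 11 genes are below; in the lower panel Cyp2b10 and Cyp2a4 are above 0, Cyp2a5 and Cyp2f2 are below, and ticks mark P450 genes with too few reads to test.

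RefSeq (GRCm38.p6) gave the 250 bases before the start for 52 members, 34 of them tested. Searched on both strands, CAAAGTCCA, a form of the site to which Hnf4a is known to bind, stood in 0.384% of 32851 promoters of that length and in 10 of the 52. Of these, 6 were tested and lower (of 18 lower members with an entry), 0 were among the other 16 tested, and 4 were members that were not tested, Cyp2c65, Cyp3a16, Cyp3a41a and Cyp3a41b, which had 1 read or none. The windows below, of the 6 tested members, show 43 bases before the motif, the motif in capitals and 8 bases after it, on the strand of the gene.
Cyp2c40 (chr19:39812843-39812902, minus strand): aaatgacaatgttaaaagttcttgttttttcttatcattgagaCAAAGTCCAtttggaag
Cyp2c69 (chr19:39886828-39886887, minus strand): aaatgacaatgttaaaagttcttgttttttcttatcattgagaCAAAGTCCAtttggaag
Cyp2c67 (chr19:39649151-39649210, minus strand): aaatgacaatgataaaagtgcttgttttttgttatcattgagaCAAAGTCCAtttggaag
Cyp2c68 (chr19:39741162-39741221, minus strand): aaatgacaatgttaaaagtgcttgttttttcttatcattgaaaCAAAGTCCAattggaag
Cyp2c70 (chr19:40187334-40187393, minus strand): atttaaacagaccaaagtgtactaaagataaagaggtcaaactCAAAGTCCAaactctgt
Cyp3a11 (chr5:145879947-145880006, minus strand): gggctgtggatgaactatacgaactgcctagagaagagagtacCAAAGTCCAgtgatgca

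Over the bases that aligned, with gaps left out, the promoters of Cyp2c40, Cyp2c67, Cyp2c68 and Cyp2c69 were 92.9 to 98.6% identical, so these 4 matches are copies of 1 sequence. Counted from the start that RefSeq gives, the motif began 45 bases before it in Cyp2c40, 64 in Cyp2c70, 75 in Cyp2c69, 77 in Cyp2c68, 109 in Cyp3a11 and 125 in Cyp2c67. These distances depend on where that start is placed. Of the other motifs searched in the same way, none of which contains another, CAAAGGTCA stood in 0.426% of all promoters and in 2 of the 34, GTTAAT in 6.43% and in 6, AGTTCA in 11.8% and in 5, TTCNNNGAA in 7.02% and in 0, and TATAAA in 12.4% and in 17. A match describes these letters and is not a measured binding site.

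On chromosome 7 a cluster of 1356 kb (chr7:25802475-27158668) holds 13 members of the Cyp2a, Cyp2b, Cyp2f, Cyp2g, Cyp2s and Cyp2t subfamilies, and its members moved in both directions. Cyp2a5 and Cyp2a4, which oxidise coumarin and testosterone, have coding sequences 98.4% identical and the same heme stretch.
Cyp2a4 and Cyp2a5: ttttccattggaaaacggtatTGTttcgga

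Cyp2a5 was abundant and lower, at 861, 845, 680 and 454 in control and 524, 519, 288 and 280 in Pcx L-/- liver. The groups overlapped (log2 fold change -0.82 ± 0.27, adjusted p = 0.0412), and the call was lost in 8 of 17 alternatives, scaling by library size among them. Cyp2a4, a female-biased gene at a far lower level, was higher, at 1.34, 2.01, 1.62 and 3.38 in control and 7.71, 4.11, 10.0 and 3.71 in Pcx L-/- liver. Its groups did not overlap (log2 fold change 1.66 ± 0.36, adjusted p = 0.00769), and the call was kept in all 17 alternatives. Cyp2a4 shared 36.1% of its 50-base words with Cyp2a5, and whether such reads were divided between them or left out is not known here. Cyp2a12, a steroid hydroxylase of the same subfamily, was 435 to 492 in control and 396 to 465 in Pcx L-/- liver, and its log2 fold change of -0.04 ± 0.12 became 0.24 with scaling by library size.

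Cyp2b10, the standard indicator of CAR activity and inducible by phenobarbital, was higher in Pcx L-/- liver. Its level was 7.11, 3.53, 11.3 and 26.2 in control and 22.1, 45.1, 49.8 and 45.7 in Pcx L-/- liver. Only Pcx L-/- replicate 1 fell below a control value, that of control replicate 4 (log2 fold change 1.78 ± 0.48, adjusted p = 0.0195; 2.47 without control replicate 4). Leaving out control replicate 1, control replicate 3, Pcx L-/- replicate 3 or Pcx L-/- replicate 4 lost the call. Cyp2b9, which is female-biased, ranged from 0.89 to 9.22 in control and from 1.85 to 14.9 in Pcx L-/- liver and did not pass (log2 fold change 0.54 ± 0.67).

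Cyp2f2, known for the activation of naphthalene, was 363, 215, 393 and 321 in control and 219, 116, 125 and 116 in Pcx L-/- liver. Replicate 1 lay just above the lowest control (log2 fold change -1.16 ± 0.24, adjusted p = 0.00629). The antisense gene Gm15883 overlaps it and had the same log2 fold change, -1.16, and since use of the strand in counting is not stated, their reads cannot be told apart. Cyp2g1, an olfactory P450, did not pass (log2 fold change -1.63 ± 0.64, adjusted p = 0.0798, 156 reads), nor did Cyp2s1, at -0.70 ± 0.45. Cyp2g1 passed as lower in DESeq2 and without Pcx L-/- replicate 1 (log2 fold change -2.13, edgeR adjusted p = 0.0331). Cyp2t4 had 61 reads over the 8 libraries and was not tested.

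Other members of families 1 and 2 lie outside these clusters. Cyp1a2, which oxidises caffeine and is a target of the aryl hydrocarbon receptor, was 192, 129, 125 and 157 in control and 165, 138, 94.4 and 111 in Pcx L-/- liver. These groups overlapped (log2 fold change -0.25 ± 0.19, adjusted p = 0.372; 0.02 with scaling by library size). The inducible Cyp1a1 and Cyp1b1 were at 0.11 to 0.66 in every library and did not pass. In the Cyp2j group, epoxygenases of arachidonic acid on chromosome 4, 1 of 3 tested genes was lower. Cyp2j9 was 8.18, 8.53, 7.47 and 3.04 in control and 4.23, 2.13, 2.29 and 1.96 in Pcx L-/- liver, with replicate 1 above the lowest control (log2 fold change -1.38 ± 0.32, adjusted p = 0.00991). Cyp2j5, the most abundant of the subfamily, was 169 to 234 in control and 146 to 166 in Pcx L-/- liver, without overlap, and did not pass (log2 fold change -0.32 ± 0.14, adjusted p = 0.0999). Cyp2j6 was at -0.31 ± 0.15.

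Cyp2r1, the vitamin D hydroxylase of liver, had a log2 fold change of -0.42 ± 0.19 (edgeR adjusted p = 0.128), and Cyp2u1, a fatty acid hydroxylase, of 0.27 ± 0.15 (edgeR adjusted p = 0.221). Of the 21 members that were not tested, the 3 with the most reads were Cyp2t4, Cyp2j8 (45 reads) and Cyp2d11 (35 reads). The female-biased Cyp3a16, Cyp3a41a and Cyp3a41b had no read, and Cyp3a44 had 1.

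Members were also grouped by what is known of their control. Over all genes tested, 14.1% were higher and 13.5% lower. Among 11 tested P450 targets of CAR and PXR, 2 were higher (Cyp2b10 and Cyp2c55) and 6 lower, with a median log2 fold change of -0.99. Of 9 P450 genes known from the pericentral zone, 8 were lower with a median of -1.89. This list holds Cyp2c29, Cyp2c37, Cyp2c38, Cyp2c50 and Cyp2c54, so its count partly repeats that of the Cyp2c genes. Its genes outside Cyp2c were Cyp3a11 (-1.19), Cyp2e1 (-0.98), Cyp2a5 (-0.82) and Cyp1a2 (-0.25, which did not pass). Of 12 pericentral genes outside the P450 family, 3 were higher and 0 lower with a median of -0.06 (1 lower at an unadjusted p under 0.05, 0 lower by DESeq2). Without Pcx L-/- replicate 1, Oat (-1.365, edgeR adjusted p = 0.000283) and Glul (-0.507, edgeR adjusted p = 0.0306) passed as lower. Axin2, Slc1a4 and Tbx3 stayed higher. The summed level of the 12 was 69.0% of control, or 54.4% without that library. Of 11 periportal genes, 6 were lower with a median of -0.79 and 0 higher (1 higher at an unadjusted p under 0.05, 1 by DESeq2). Of the 4 P450 targets of the aryl hydrocarbon receptor, 0 passed the edgeR test, 0 were under an unadjusted p of 0.05, and 0 passed DESeq2, with a median of -0.19. Female-biased members went both ways, with Cyp2a4 higher and Cyp2c40 and Cyp2c69 lower of 4 tested, and of the male-biased members Cyp2d9 was lower and Cyp2u1 did not pass.

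The proteins that serve the P450 enzymes were also examined. Of 20 electron donors and enzymes of heme supply, 2 were higher and 9 lower (14.1% and 13.5% of all genes tested), with a median log2 fold change of -0.29. Alas1, the rate-limiting enzyme of heme synthesis, was 427, 356, 313 and 223 in control and 304, 111, 123 and 92.6 in Pcx L-/- liver, with replicate 1 inside the control range (log2 fold change -1.06 ± 0.35, adjusted p = 0.043). Cyb5r3, which reduces cytochrome b5, was 101 to 106 in control and 71.7, 43.9, 52.7 and 51.6 in Pcx L-/- liver (log2 fold change -0.91 ± 0.15, adjusted p = 0.00189). Pgrmc1, a heme-binding partner of P450 enzymes, had a log2 fold change of -0.53 ± 0.14. Por, the electron donor of all microsomal P450 enzymes, was 458, 376, 500 and 620 in control and 493, 233, 244 and 208 in Pcx L-/- liver and did not pass (log2 fold change -0.73 ± 0.27, adjusted p = 0.0673). Without Pcx L-/- replicate 1, Por passed as lower (log2 fold change -1.10, edgeR adjusted p = 0.00048). Cyb5a, cytochrome b5 itself, was at 0.25 ± 0.23.

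The higher partners were Cyb5r1 and Hmox2. Cyb5r1, another cytochrome b5 reductase, was 3.50, 2.95, 3.45 and 2.60 in control and 18.2, 33.6, 33.2 and 36.8 in Pcx L-/- liver (log2 fold change 3.27 ± 0.22, adjusted p = 2.73e-05). Hmox2, the constitutive heme oxygenase, was 21.1 to 24.6 in control and 31.9 to 51.1 in Pcx L-/- liver (log2 fold change 0.98 ± 0.15, adjusted p = 0.00133). For both, Pcx L-/- replicate 1 was the library nearest to control.

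Of 38 tested regulators of P450 transcription, 3 were higher and 10 lower (14.1% and 13.5% of all genes tested), with a median log2 fold change of -0.30. Nr1i3, which encodes CAR, was 95.9, 87.4, 83.8 and 39.4 in control and 56.5, 24.3, 29.5 and 31.6 in Pcx L-/- liver, and the groups overlapped through control replicate 4 and Pcx L-/- replicate 1 (log2 fold change -1.11 ± 0.30, adjusted p = 0.0193). Nr1i2, which encodes PXR, did not pass (log2 fold change -0.47 ± 0.21, adjusted p = 0.129). Ahr was lower without overlap, at 9.73 to 12.4 in control and 7.27 to 9.19 in Pcx L-/- liver (log2 fold change -0.47 ± 0.12, adjusted p = 0.013). Ppara, the fatty acid receptor of the fasted liver, was at -0.52 ± 0.13 (edgeR adjusted p = 0.0137). Hnf4a was 157 to 261 in control and 149 to 175 in Pcx L-/- liver and did not pass, at -0.31 ± 0.18, a value that became 0.00 in limma on FPKM. Stat5b, which carries the growth hormone signal, did not pass, at -0.23 ± 0.11, and was 0.06 with scaling by library size.

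Cux2 and Igf1 were also lower. Igf1, the hepatic target of growth hormone, was 70.3 to 101 in control and 71.0, 29.5, 36.2 and 31.6 in Pcx L-/- liver, with replicate 1 just above the lowest control (log2 fold change -1.05 ± 0.26, adjusted p = 0.0133). Cux2, a female-biased repressor of male-biased genes, was 1.55, 1.09, 3.46 and 1.64 in control and 0.66, 0.11, 0.15 and 0.21 in Pcx L-/- liver (log2 fold change -2.81 ± 0.52, adjusted p = 0.00364; -3.65 without Pcx L-/- replicate 1). Nr1d1, a repressor of the clock, was higher, at 14.9 to 22.6 in control and 25.3 to 53.8 in Pcx L-/- liver (log2 fold change 1.13 ± 0.21, adjusted p = 0.00348), as were Rxrb and Stat5a, at 0.44 ± 0.10 and 0.42 ± 0.13.

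**Figure D5:**
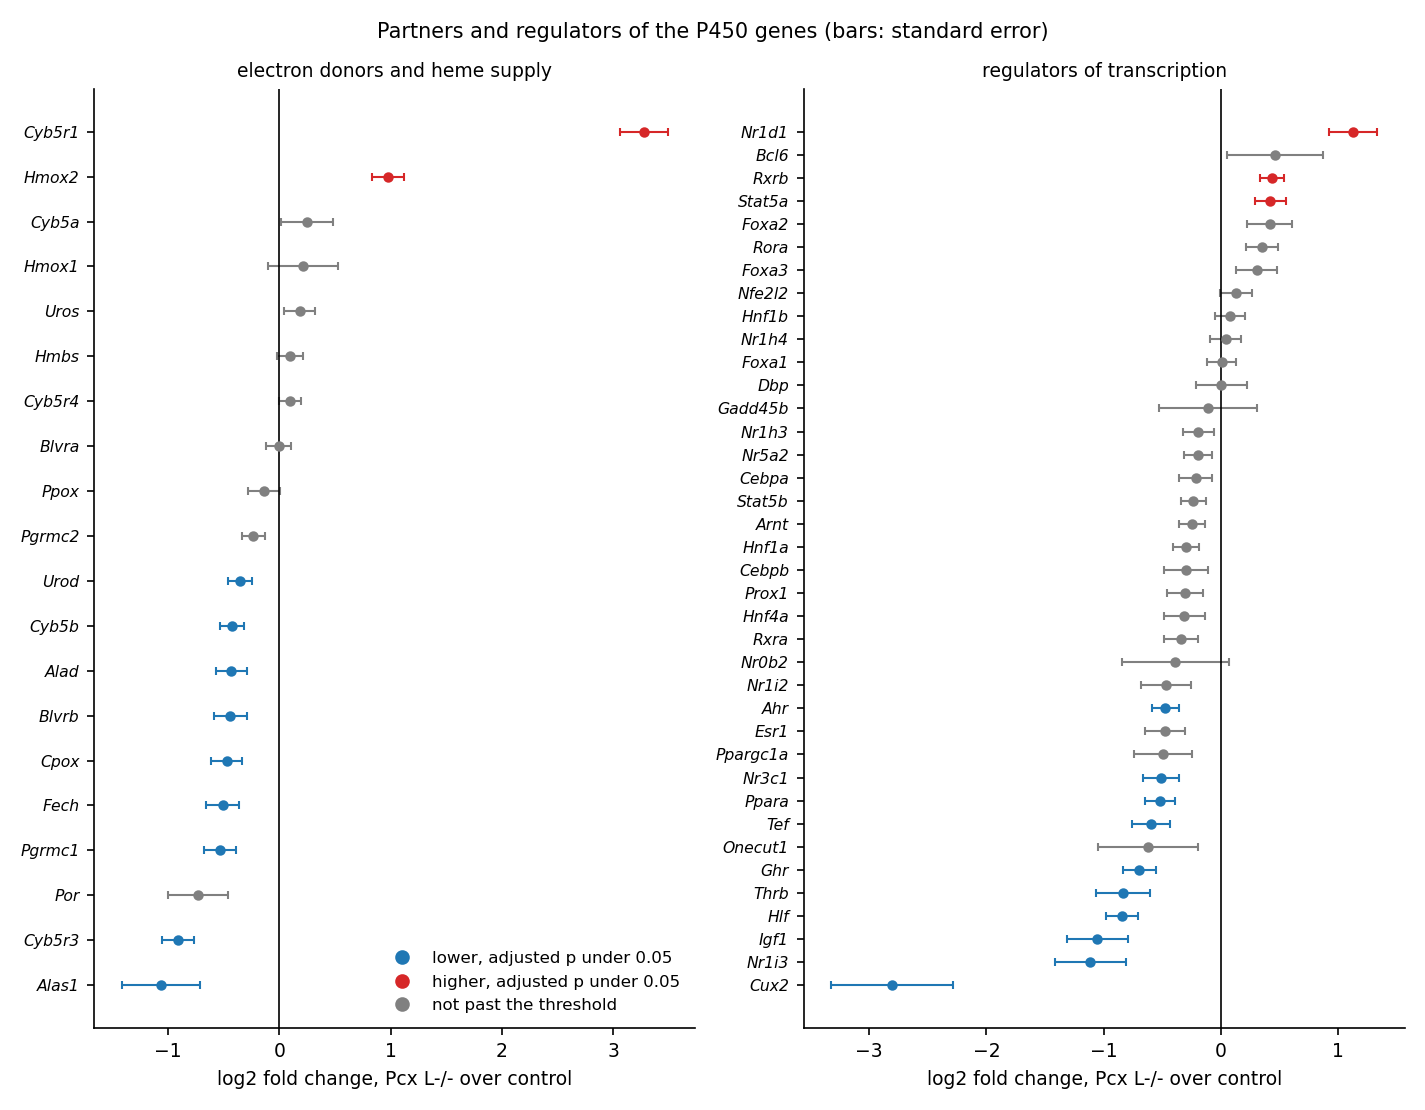
Log2 fold change in Pcx L-/- over control liver (x axis, bars for the standard error) of the 20 tested electron donors and heme supply genes (left) and the 38 tested regulators (right), ordered by value, with blue for lower and red for higher at an adjusted p under 0.05 by edgeR. Cyb5r1 at 3.27 lies farthest to the right and Cux2 at -2.81 farthest to the left.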

How the data were processed

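The deposited count table, with raw counts per gene, and the FPKM columns that the authors placed beside it came from total RNA of flash-frozen liver. The submitters' processing notes name STAR 2.5, HTSeq 0.6.1, DESeq2 and build mm10, and neither the annotation release nor the strand setting was found in the sources used here. The deposited FPKM values equal count over gene length and library total in 100% of 142384 values above 0 (relative tolerance 1e-06), which supplied the lengths. Identifiers were matched to GENCODE M21 (97.8%). Counts were tested with edgeR 4.0.16 in R 4.3.3 (TMM factors, the filterByExpr filter at its minimum count of 10 and total of 15, a quasi-likelihood F test of genotype without covariates, 4 mice against 4, Benjamini-Hochberg adjustment over 13168 genes, threshold 0.05), and edgeR's adjusted p-values are those printed throughout. A level is count per length over the TMM effective library size, that is a normalised FPKM, and levels are means ± SD over mice where given so. TMM factors were 0.833 to 0.942 in control and 0.97 to 1.16 in Pcx L-/- libraries. Replicate libraries correlated at a Spearman rho of 0.976 to 0.993, and no pair of libraries agreed within sampling noise. Results were recomputed with other scalings, other filters, DESeq2 1.42.0, and limma 3.58.1 on log2(FPKM + 1) or log2(FPKM + 0.1) of the deposited values. Further fits used the replicate number as a block, used a term splitting lower from higher mouse numbers, or left out each library. The scripts were tested on simulated data.

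Members and gene lists were chosen with earlier results of these data known. Genes named with values were all members past the threshold and at least 2-fold changed, the 10 members highest in control, the highest tested member of each subfamily, the 3 untested members with most reads, and from the partner and regulator lists 9 preset genes and the 3 highest and 3 lowest past the threshold; other members were added after their values were seen. A further regulator is not reported here. Coding sequences are the longest open reading frames of GENCODE M21 transcripts, and promoters are those of RefSeq (GRCm38.p6). Percent identity was counted over aligned bases, with gaps left out. Counting error grows at low counts, and the members with the fewest reads are the least certain.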

Additional observations from a re-analysis of the deposited data

Results flagged for a closer look

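In 18 of 102 groups of 4 libraries, 1 library lay far from the other 3. The gap was above Dixon's 95% limit for that group size. Chance flags about 1 in 20 independent groups. These groups are genes in the same libraries and are not independent, so that rate is no baseline for the 18. In 15 of the 18 flagged groups the library was Pcx L-/- replicate 1. Its level was on the control side of the other 3 Pcx L-/- libraries for Cyp2e1 (4807), Cyp2d9 (905), Cyp2d10 (596), Cyp3a25 (573), Cyp2f2 (219), Cyp2c50 (121), Cyp2c54 (57.6), Cyp2b10 (22.1), Cyp2c70 (14.2), Cyp2j9 (4.23) and Cyp2c40 (1.51), and for the partners and regulators Por (493), Pgrmc1 (468), Alas1 (304) and Igf1 (71.0). The red blood cell marker sum of this library was 5510, and its part in these values was not tested. In the control group the values that stood apart were Cyp2c69 (6.89) and Ppara (66.6) in replicate 4 and Nr1i2 (61.5) in replicate 3, each the highest of its group.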

How the results depend on the processing

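No called member changed direction in any of the 17 alternatives. When each library was left out in turn, 17 to 27 members passed, where 15.7 to 34.5% of all genes passed. The number of higher members, 3, ranged from 1 to 3 in those fits, 1 being left when control replicate 1, control replicate 3, Pcx L-/- replicate 3 or Pcx L-/- replicate 4 was omitted. The summed P450 level, 0.531 of control, ranged from 0.439 without Pcx L-/- replicate 1 to 0.632 with the FPKM as deposited. Among partners and regulators, 5 higher and 19 lower genes became 11 and 8 with scaling by library size only and 11 and 6 in limma on log2(FPKM + 1) and on log2(FPKM + 0.1), and the lower genes ranged from 6 to 24 when libraries were left out, with 8, 9 and 6 without Pcx L-/- replicate 2, 3 and 4, 12 and 11 without control replicate 1 and 3 and 24 without Pcx L-/- replicate 1. Library size scaling made 6.61% of all genes lower in place of 13.5%, and the limma fits 6.25 and 6.24%. Leaving out each library in turn made 7.11 to 17.8% of all genes lower. The sign turned for values near 0 that did not pass. With library size only, log2(FPKM + 1) and log2(FPKM + 0.1), Cyp1a2 became 0.022, 0.025 and 0.025, Cyp1b1 0.255, 0.035 and 0.13, Cyp2a12 0.242, 0.241 and 0.242, and Stat5b 0.062, 0.05 and 0.053; Hnf4a became 0.003 in both limma fits. Cyp1b1 ranged from -0.244 to 0.121 and Cyp2a12 from -0.066 to 0.007 as libraries were left out (Cyp1b1 was 0.037 and 0.121 without Pcx L-/- replicate 1 and 4, 0.047 and 0.033 without control replicate 2 and 4). The cause was not tested. Mice with the same replicate number did not deviate together (correlations 0.0958, -0.127, -0.0938 and -0.0677), so the numbers do not pair the samples. With the replicate block 24 members passed, 2 higher and 22 lower, where 22.6% of all genes passed and 11.3% were lower. Cyp2c55 was lost and Cyp3a25 gained. With a term splitting lower from higher mouse numbers, 25 members passed, where 26.8% of all genes passed. Depth limits the scarcest members, such as Cyp2c55 with 118 reads.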
